A study of Mus musculus with 4 samples.

Results

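Single-cell RNA sequencing of mouse kidney with immune-mediated glomerular injury was examined here for 8 genes that release, receive or restrain transforming growth factor beta (TGF-beta), out of 16706 genes in the deposited count matrix. The members were the ligand Tgfb1, the integrin subunits Itgav, Itgb6 and Itgb8, the matrix protein Thbs1, the receptors Tgfbr1 and Tgfbr2 and the inhibitor Smad7. They were chosen by name, with 1 measured value in view: the set was selected on the level of Itgb6 in proximal tubule cells of the givinostat library, which stood above that of vehicle. That value, and every other ratio of givinostat to vehicle in proximal tubule cells, is therefore given as a description.

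All groups were male C57Bl/6 mice of 9 weeks with the genotype Pax2.rtTA;TetO.Cre;R26.Confetti, a multicolour reporter under an inducible Cre driven from a renal epithelial promoter. The sources used here do not say whether the reporter was induced. All of them, controls included, had been injected with a serum to the glomerular basement membrane (anti-GBM), which sets off glomerulonephritis. From day 1 the mice were given distilled water (vehicle) or a drug, and they were killed at day 7. The dose was 15 mg/kg for panobinostat, 10 mg/kg for givinostat and 60 mg/kg for ruxolitinib. Panobinostat and givinostat inhibit histone deacetylases, and ruxolitinib inhibits the kinases JAK1 and JAK2. Each group had 2 animals and 1 library of total kidney cells, and the labels do not say whether a library pools both animals. With 1 library per group no difference between groups could be tested, and all intervals below cover counting error only. The 3 drug libraries are each set against the same vehicle library, and the doses differ between the drugs.

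TGF-beta is secreted in a latent form, folded inside its own propeptide, and has to be released before it can signal. The integrins alpha-v beta-6 of epithelium and alpha-v beta-8 grip an Arg-Gly-Asp site in that propeptide and free the ligand, and thrombospondin-1 (Thbs1) can also activate it. Free ligand binds the type II receptor, which recruits the type I receptor and activates SMAD proteins, whereas Smad7 blocks the type I receptor and is itself induced by the pathway. In kidney the pathway is best known for driving scarring and for restraining leukocytes.

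The integrin grip on the ligand can be seen in the Tgfb1 transcript itself, which is why that stretch is shown. Translating the GENCODE coding transcript, of 390 residues, gave 1 Arg-Gly-Asp site, at residues 244 to 246. The site is followed by a leucine and, 3 residues further, by an isoleucine. It lies in coding exon 5 of 7, on the plus strand of GRCm38 at chr7:25697125-25697177, with the 3 codons in capitals.
Tgfb1: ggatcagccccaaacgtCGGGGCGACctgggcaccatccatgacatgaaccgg
The promoters of the 2 integrin beta subunits are shown because both genes stood higher in the givinostat library in proximal tubule cells. They are the 250 bases before the RefSeq start (GRCm38.p6, minus strand, at chr2:60722604-60722853 for Itgb6 and chr12:119238277-119238526 for Itgb8), with matches to the SMAD-binding letters CAGAC on either strand in capitals.
Itgb6: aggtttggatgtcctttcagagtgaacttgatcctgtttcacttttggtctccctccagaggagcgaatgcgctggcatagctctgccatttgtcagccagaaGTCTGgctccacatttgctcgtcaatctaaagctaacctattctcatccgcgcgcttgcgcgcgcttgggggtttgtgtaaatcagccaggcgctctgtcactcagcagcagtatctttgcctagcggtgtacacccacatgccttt
Itgb8: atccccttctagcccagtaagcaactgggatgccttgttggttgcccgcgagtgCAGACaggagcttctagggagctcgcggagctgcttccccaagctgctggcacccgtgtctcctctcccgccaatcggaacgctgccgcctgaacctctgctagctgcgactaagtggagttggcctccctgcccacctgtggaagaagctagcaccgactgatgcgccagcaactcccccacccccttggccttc
Each promoter held 1 such match, 147 bases before the start in Itgb6 and 196 bases before it in Itgb8. The same letters are found in 42.2% of all 32851 promoter windows of this length, so a match is common. Neither window held a TATA box (TATAAA, in 12.4% of windows), a GC box (GGGCGG, in 32.7%) or an AP-1 site (TGANTCA, in 6.75%), each sought on both strands and none overlapping a CAGAC match. These are matches of letters only.

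By the GENCODE annotation of GRCm38, Itgb6 lies on chromosome 2 from 60598292 to 60722643 (minus strand), Itgav on chromosome 2 from 83724397 to 83806916 (plus) and Thbs1 on chromosome 2 from 118111876 to 118127133 (plus). Tgfb1 lies on chromosome 7 from 25687002 to 25705077 (plus), Tgfbr1 on chromosome 4 from 47353222 to 47414931 (plus), Tgfbr2 on chromosome 9 from 116084293 to 116175360 (minus) and Itgb8 on chromosome 12 from 119158022 to 119238802 (minus). Smad7 lies on chromosome 18 from 75367529 to 75395935 (plus). No gene measured in the data overlaps any of them.

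Of 16003 deposited cells 15777 passed the filters, with 3472 in the givinostat library and 4396 in the panobinostat library as the extremes. Median UMIs (unique molecular identifiers, each a captured transcript) per cell ran from 6568.5 in panobinostat to 10020.5 in givinostat, and the median mitochondrial share from 6.33% in givinostat to 12.6% in panobinostat. Of the cell barcodes, 20 occurred in more than 1 library. Levels of the copy genes Tpm3-rs7 and Gm10036 set vehicle and panobinostat apart from givinostat and ruxolitinib. Tpm3-rs7 was at 4.14, 3.96, 53.8 and 53.8 CPM over all kept cells in the order vehicle, panobinostat, givinostat and ruxolitinib, so the last 2 comparisons with vehicle cross a split between libraries and the first does not. The part of this split in the results below was not tested. Clustering gave 32 clusters, of which 26 could be named by marker genes. In each of the 15 named classes every measured marker had UMIs. No cluster was led by markers of podocytes or of parietal cells, and the 75 stromal-like cells also carried podocyte markers, at a summed 851 to 2300 CPM.

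The members divided the kidney between them by cell class (levels are CPM, the UMIs of a gene scaled to a common total of UMIs in a class and library). Itgb6 was highest in tubule classes and Itgb8 in proximal tubule-like and loop of Henle-like cells. Tgfb1 was highest in leukocytes, Thbs1 in monocyte-like cells and Smad7 in lymphocytes. Endothelial-like cells also held Tgfb1 at 114 CPM and Smad7 at 223 CPM, pooled over the libraries, and stromal-like cells held Thbs1 at 116 CPM. Pooled over the 4 libraries, Itgb6 stood at 136 CPM in loop of Henle-like, 84.3 in proximal tubule-like and 73.1 in intercalated-like cells. Itgb8 stood at 176 CPM in proximal tubule-like cells and at 89.2 in loop of Henle-like cells. Stromal-like cells followed at 68.3 CPM, whereas collecting duct-like and intercalated-like cells held 7.28 and 5.73 CPM. Itgav, the alpha chain that both beta chains need, was led by intercalated-like cells (216 CPM), the 75 stromal-like cells (184 CPM) and collecting duct-like cells (177 CPM), with loop of Henle-like cells at 131 CPM. Tgfb1 stood at 327 CPM in monocyte-like and 251 in NK-like cells, against 3.71 CPM in proximal tubule-like cells. In the 2 classes with the most Itgb6, Tgfb1 was at 2.62 to 7.16 CPM over the libraries. T-like cells, which should lack the epithelial Itgb6, held it at 1.53 to 4.94 CPM over the libraries and were the lowest class for it. Pooled Itgb6 levels in the other classes outside the tubule were higher. They ran from 4.82 CPM in the unnamed cluster led by Lef1 and Ccr7 to 30.4 in endothelial-like and 41.8 in the 96 neutrophil-like cells. The level in T-like cells is therefore not a background for every class. Itgb8, which some T cells are known to express, was at 4.58 to 8.02 CPM in T-like cells.

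**Figure D1:**
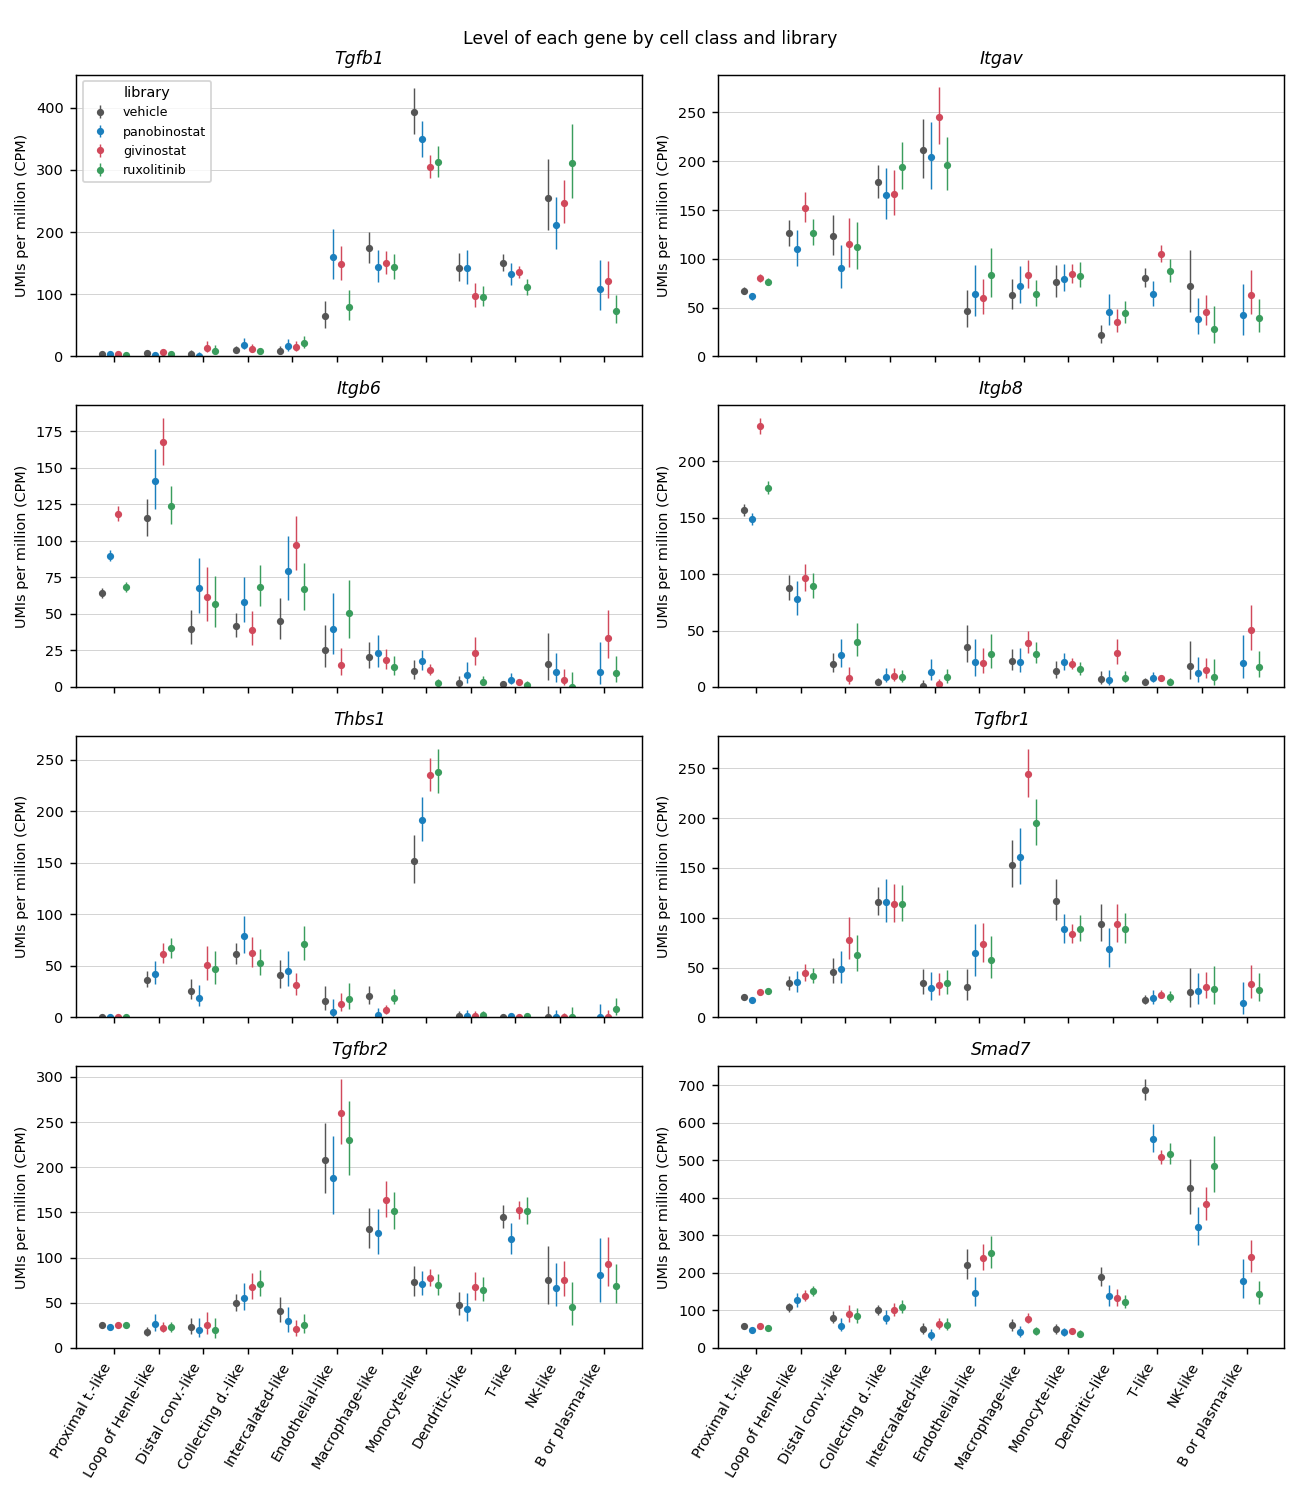
Level of each of the 8 genes (CPM, linear axis) in 12 cell classes, 1 point per library with its exact 95% Poisson interval for counting error; library and class combinations under 40 cells are not drawn. Itgb6 and Itgb8 stand highest in tubule classes, and Tgfb1, Thbs1 and Smad7 in monocyte-like or lymphocyte classes.

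Itgb6 encodes the beta chain of the epithelial activator of latent TGF-beta. In proximal tubule-like cells (1199 to 2529 cells per library) it was at 64.3 CPM in vehicle, 89.8 in panobinostat, 119 in givinostat and 68.4 in ruxolitinib. Givinostat was highest, panobinostat came next, and ruxolitinib lay close to vehicle. The ratios to vehicle were 1.40 for panobinostat (95% interval 1.30 to 1.495), 1.84 for givinostat (1.72 to 1.97), the value that chose the set, and 1.06 for ruxolitinib (0.987 to 1.15). Among genes with at least 20 CPM in either library, Itgb6 ranked 10 of 5698 by its ratio in givinostat, 45 of 5545 in panobinostat and 2927 of 5809 in ruxolitinib. Shares of cells with a UMI had the same order once every cell was thinned to 2500 UMIs: 12.8%, 17.5%, 20.9% and 13.5% in vehicle, panobinostat, givinostat and ruxolitinib. Unthinned, they were 39.8%, 42.3%, 64.8% and 41.1%, at median depths of 9744, 7681, 12890 and 10385 UMIs. In T-like cells the thinned shares were 0.305%, 1.40%, 0.293% and 0.445%, at unthinned median depths of 4139 to 7381 UMIs.

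By cluster, as a further description of the value that chose the set, Itgb6 under givinostat was at 1.64 to 2.60 times vehicle in the 7 proximal tubule-like clusters with at least 50 cells in both libraries. For panobinostat all 8 clusters stood above vehicle, at 1.09 to 2.39 times, and 6 intervals lay above 1. For ruxolitinib 5 of 8 clusters stood above vehicle, at 0.808 to 1.85 times, and 1 interval lay above 1. In cluster 0, led by the early proximal tubule transporter Slc5a12, Itgb6 was at 72.9, 102, 137 and 68.3 CPM in vehicle, panobinostat, givinostat and ruxolitinib. In cluster 5, led by Car3, the levels were 41.1, 44.8, 69.6 and 33.2 CPM, so panobinostat lay close to vehicle there. Cluster 12, led by Gm45792, was the 1 where ruxolitinib also stood apart, at 47.0, 113, 122 and 86.8 CPM. Summed dissociation stress genes were at 6431, 5081, 5558 and 5391 CPM in proximal tubule-like cells, highest in vehicle, and their part in the Itgb6 level was not tested.

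**Figure D2:**
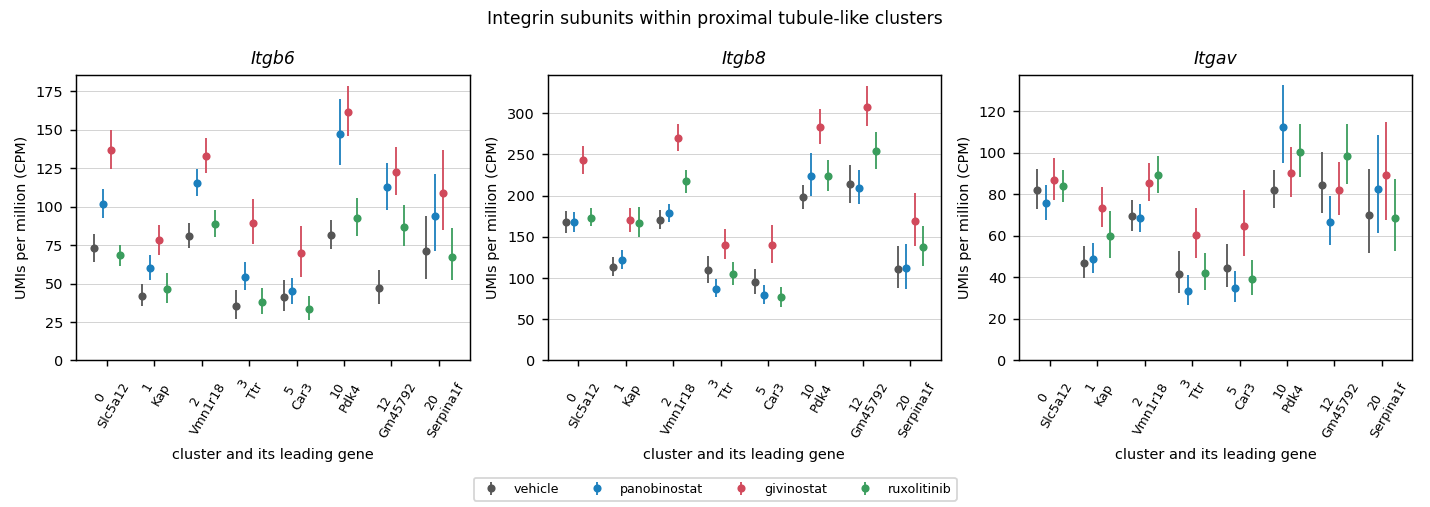
Levels of Itgb6, Itgb8 and Itgav (CPM) in the 8 proximal tubule-like clusters, named by number and leading gene, 1 point per library with its exact 95% Poisson interval for counting error. Givinostat stands above vehicle for Itgb6 and Itgb8 in every cluster drawn, including cluster 20 with 40 givinostat cells.

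Outside the proximal tubule, Itgb6 stood above vehicle under givinostat in 3 of the 4 other tubule classes. In loop of Henle-like cells, where it was most abundant, it was at 115, 141, 167 and 124 CPM in vehicle, panobinostat, givinostat and ruxolitinib. The ratios were 1.22 (1.01 to 1.47), 1.45 (1.25 to 1.68) and 1.07 (0.923 to 1.25). When cells were thinned to 2500 UMIs the panobinostat ratio turned to 0.993. Proximal tubule markers summed to 5327, 5501, 918 and 1224 CPM in these loop of Henle-like cells, lowest in givinostat, and their part in the Itgb6 level was not tested. In intercalated-like cells, which handle acid and base in the collecting duct, Itgb6 was at 45.1, 79.2, 97.2 and 67.2 CPM, on 50, 47, 51 and 56 cells, and the givinostat ratio was 2.16 (1.502 to 3.15). In distal convoluted tubule-like cells the 3 drug libraries all stood above vehicle, at 39.6, 67.3, 61.5 and 56.6 CPM, on 47, 53, 46 and 45 UMIs. Collecting duct-like cells did not keep this order, at 41.9, 58.2, 39.3 and 68.3 CPM with 48 givinostat cells.

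Itgb8 encodes the other beta chain that releases TGF-beta. Proximal tubule-like cells held it at 157 CPM in vehicle, 149 in panobinostat, 231 in givinostat and 177 in ruxolitinib. Givinostat was highest, at 1.47 times vehicle (1.41 to 1.54), with panobinostat at 0.948 (0.904 to 0.995) and ruxolitinib at 1.12 (1.07 to 1.18). The 7 clusters compared were all above vehicle under givinostat, at 1.28 to 1.58 times. For panobinostat 5 of 8 clusters stood above vehicle although the pooled ratio lay below 1, and with the vehicle mix of clusters that ratio became 1.03. Under panobinostat the same cells thus held Itgb6 at 1.40 times vehicle and Itgb8 at 0.948 times. Itgav was at 67.6, 61.5, 80.6 and 76.8 CPM in proximal tubule-like cells, with ratios of 0.910, 1.19 and 1.14 in the order panobinostat, givinostat and ruxolitinib. In its main class, loop of Henle-like cells, it was at 126, 110, 153 and 127 CPM, and the givinostat ratio of 1.21 (1.04 to 1.40) turned to 0.953 on thinned cells. The alpha chain thus stayed within 1.5-fold of vehicle in both classes in all 3 drug libraries.

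Counts past a fold are read against all genes measured. In proximal tubule-like cells 6 of the 8 members reached 20 CPM in either library, and Tgfb1 and Thbs1 did not. Past 1.5-fold of vehicle, in either direction, were 0 of 6 under panobinostat, where 2.00% of all genes tested were, 1 of 6 under givinostat (Itgb6), against 1.91%, and 0 of 6 under ruxolitinib, against 2.41%. The median log2 ratio of the 6 members was -0.14, 0.29 and 0.13 in panobinostat, givinostat and ruxolitinib, beside 0.02, 0.06 and 0.09 over all genes tested. Itgb6 chose the givinostat contrast, so nothing is read from its count.

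**Figure D3:**
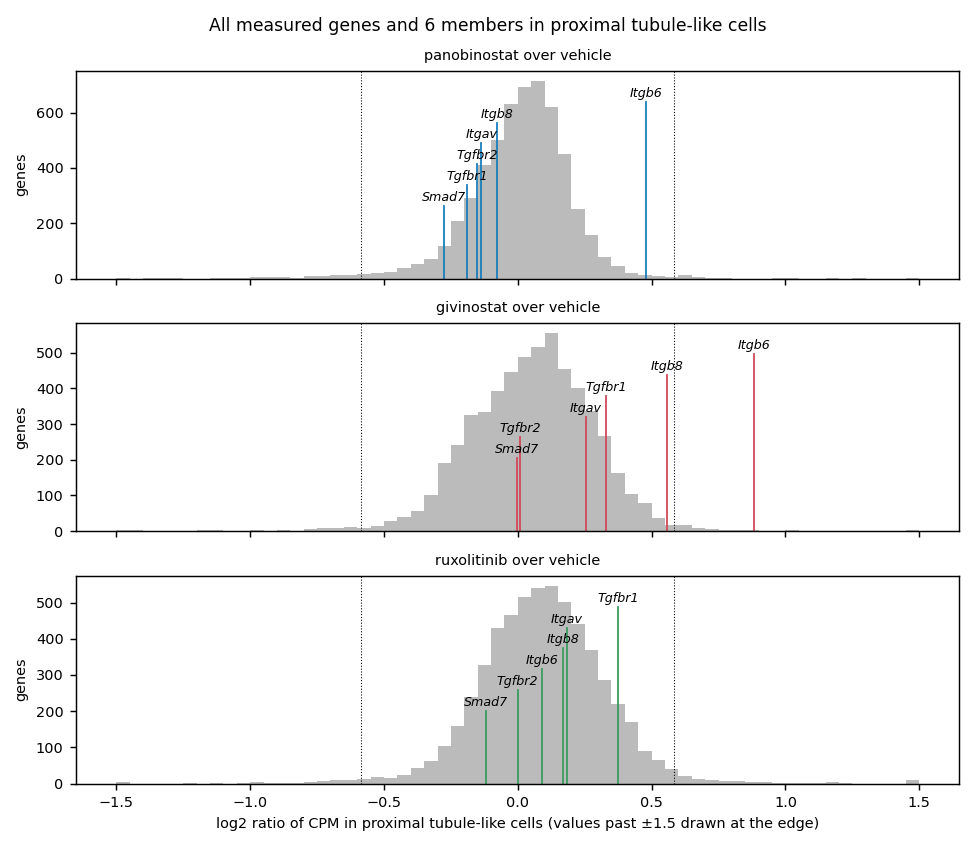
Distribution of the log2 ratio of CPM to vehicle over all genes with at least 20 CPM in either library and UMIs in both, in proximal tubule-like cells, 1 panel per drug, with the 6 measured members marked; dotted lines stand at 1.5-fold. Itgb6 lies at the upper edge under panobinostat and givinostat and inside the bulk under ruxolitinib.

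Tgfb1, the ligand, was highest in monocyte-like cells (150 to 302 cells per library). It was at 393 CPM in vehicle, 349 in panobinostat, 305 in givinostat and 313 in ruxolitinib. Vehicle was highest, and the ratios were 0.887 (0.782 to 1.01), 0.775 (0.693 to 0.867) and 0.795 (0.703 to 0.9002). On thinned cells the panobinostat ratio was 1.04. In macrophage-like cells Tgfb1 was at 175, 144, 150 and 144 CPM, and in T-like cells at 151, 132, 136 and 111 CPM. Vehicle was the highest library in those 2 classes too, but every macrophage-like interval included 1, and among T-like ones that of ruxolitinib alone lay below 1 (0.739, 0.637 to 0.854). Endothelial-like cells (45 to 68 per library) had vehicle as the lowest library, at 64.5, 160, 148 and 79.6 CPM.

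Thbs1, thrombospondin-1, was at 152 CPM in vehicle, 191 in panobinostat, 235 in givinostat and 238 in ruxolitinib in monocyte-like cells. All 3 drug libraries lay above vehicle, with ratios of 1.26 (1.04 to 1.52), 1.54 (1.31 to 1.83) and 1.56 (1.31 to 1.87). Most of it was in cluster 13, led by genes of classical monocytes such as Chil3 and by Thbs1 itself, at 291, 335, 345 and 393 CPM. That cluster made up 66 of 150 vehicle cells, 133 of 259 panobinostat cells, 160 of 302 givinostat cells and 125 of 233 ruxolitinib cells. Within it the ratios were smaller, at 1.15 (0.948 to 1.40), 1.19 (0.998 to 1.42) and 1.35 (1.13 to 1.63). The remaining monocyte-like cells, cluster 14, held Thbs1 at 22.3, 14.8, 74.9 and 24.8 CPM. In loop of Henle-like cells Thbs1 was at 36.8, 42.7, 61.8 and 67.0 CPM, 1.68 (1.30 to 2.18) times vehicle in givinostat and 1.82 (1.43 to 2.34) times in ruxolitinib, the 2 libraries on the far side of the split described above. Macrophage-like cells held little, 20.6, 2.41, 7.16 and 19.2 CPM, on 23, 2, 12 and 28 UMIs.

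Tgfbr1, the type I receptor, was highest in macrophage-like cells (127 to 169 cells per library). It was at 153 CPM in vehicle, 160 in panobinostat, 245 in givinostat and 195 in ruxolitinib. Givinostat was highest, at 1.60 times vehicle (1.33 to 1.92), ruxolitinib was at 1.27 (1.05 to 1.55) and panobinostat at 1.05 (0.830 to 1.32). In monocyte-like cells vehicle was instead highest, at 117, 88.7, 84.0 and 88.9 CPM. In those cells the ratios were 0.759 (0.596 to 0.967), 0.719 (0.583 to 0.889) and 0.760 (0.604 to 0.959). Tgfbr2, the type II receptor that binds the ligand first, stood at 227 CPM pooled in endothelial-like cells and at 147 and 146 CPM in macrophage-like and T-like cells, whose counting intervals overlapped. By library it was at 132, 127, 164 and 152 CPM in macrophage-like cells and at 208, 188, 260 and 230 CPM in endothelial-like cells. The macrophage-like ratios were 0.963 (0.742 to 1.25), 1.25 (1.02 to 1.53) and 1.15 (0.931 to 1.43). In proximal tubule-like cells Tgfbr2 lay at 25.3, 22.8, 25.5 and 25.3 CPM, 0.8995 to 1.01 times vehicle.

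Smad7, the inhibitory SMAD, was highest in lymphocytes. In T-like cells (357 to 682 per library) it was at 688 CPM in vehicle, 558 in panobinostat, 508 in givinostat and 517 in ruxolitinib. Vehicle was highest, and the ratios were 0.811 (0.750 to 0.876), 0.738 (0.698 to 0.780) and 0.752 (0.703 to 0.805). The same order of vehicle over each drug library held in both T-like clusters with at least 50 cells in every library. In cluster 4 the ratios were 0.801, 0.873 and 0.827, and in cluster 7 they were 0.821, 0.596 and 0.637 in the order panobinostat, givinostat and ruxolitinib. NK-like cells did not follow, with 425, 321, 383 and 486 CPM and ruxolitinib highest. Tubule cells held less, and in loop of Henle-like cells vehicle was lowest, at 108, 127, 138 and 152 CPM. Within the proximal tubule the level depended on the cluster, given as a description since clusters were drawn from all genes: cluster 0 held Smad7 at 80.8 to 102 CPM, and cluster 1, led by the late proximal tubule gene Kap, at 5.81 to 15.4 CPM.

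**Figure D4:**
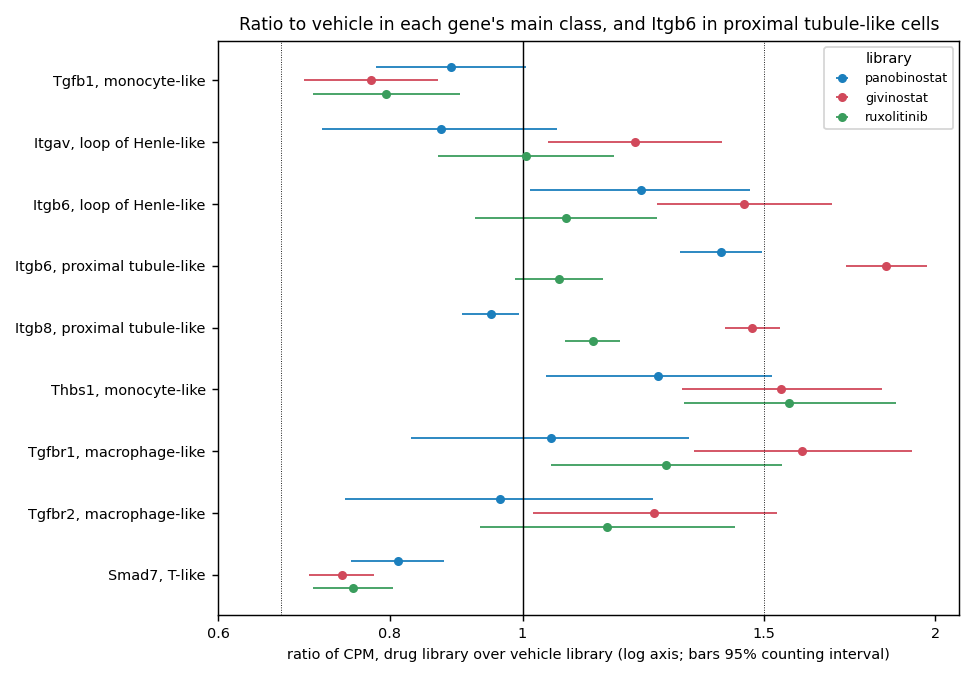
Ratio of CPM in each drug library to the vehicle library (log axis) for each gene in its main class, the named class with the highest pooled CPM among those with at least 50 cells in every library, plus Itgb6 in proximal tubule-like cells; bars are exact 95% counting intervals and dotted lines stand at 1.5-fold. Itgb6 in proximal tubule-like cells, Tgfbr1 and Thbs1 under givinostat and Thbs1 under ruxolitinib lie past 1.5-fold, and Smad7 lies below 1 in all 3 drug libraries.

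The share of all genes past 1.5-fold was larger in the smaller classes. In loop of Henle-like cells 1 of 7 members tested was past it under panobinostat (Tgfbr2, 1.54, with an interval of 0.973 to 2.43), givinostat (Thbs1) and ruxolitinib (Thbs1), where 7.75%, 9.12% and 8.49% of all genes were. In monocyte-like cells 1 of 7, 1 of 7 and 1 of 6 were, against 10.0%, 10.8% and 11.9%: Itgb8 under panobinostat (21.7 against 14.2 CPM, 1.53, with an interval of 0.829 to 2.96) and Thbs1 under the other 2 drugs. In macrophage-like cells 1 of 8 was past it under panobinostat (Thbs1, lower), against 19.3%. Under givinostat 3 of 8 were (Itgb8 and Tgfbr1 higher, Thbs1 lower), against 18.3%, and under ruxolitinib 1 of 8 (Itgb6, lower), against 16.5%. In T-like cells 0 of 4, 0 of 5 and 0 of 5 were, against 7.70%, 4.72% and 4.59%. The Itgb6 and Itgb8 counts in leukocytes stood beside summed proximal tubule markers of 4348 to 8287 CPM in macrophage-like cells, whose part in them was not tested.

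The wider pathway was read from 54 genes listed by role, of which 53 were measured. In proximal tubule-like cells 17 of them reached 20 CPM. Under givinostat 0 of 17 were past 1.5-fold of vehicle, with a median log2 ratio of 0.11, in the contrast that chose the set. Under panobinostat 4 of 17 were lower and 0 higher, beside 1.51% and 0.487% of all genes tested. These were the SMAD corepressor Tgif1 (0.627), the ubiquitin ligase Nedd4l (0.606), and the targets Id1 (0.524, 0.480 to 0.572) and Klf10 (0.540, 0.476 to 0.611). Id1 was at 65.9 CPM in vehicle, 34.5 in panobinostat, 51.8 in givinostat and 79.4 in ruxolitinib, lowest in panobinostat and highest in ruxolitinib. Among proximal tubule-like clusters in vehicle, Tgif1, Nedd4l, Id1 and Klf10 all stood highest in cluster 10, led by Pdk4. It made up 215 of 1797 vehicle and 91 of 2529 panobinostat cells. Within it they were at 81.5, 97.5, 146 and 89.8 CPM in vehicle and 66.0, 66.0, 118 and 48.9 in panobinostat. Under panobinostat Tgif1 lay below vehicle in clusters 0, 1, 2 and 10 and above it in clusters 3, 5, 12 and 20. Nedd4l and Id1 lay below vehicle in every one of these clusters, and Klf10 in every one except cluster 5. Some of these levels were under 20 CPM. The part of the cluster mix in these ratios was not tested. Under ruxolitinib 2 of 17 were lower, Tgif1 (0.634) and the feedback inhibitor Pmepa1 (0.657), and 0 were higher, beside 0.809% and 1.60% of all genes.

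In loop of Henle-like cells 3 of 22 listed genes were higher and 1 lower under panobinostat, 3 of 20 higher and 0 lower under givinostat, and 1 of 21 higher and 1 lower under ruxolitinib. Of all genes tested there, 4.92%, 5.67% and 5.29% were higher and 2.83%, 3.46% and 3.20% lower in the same order of drugs. Ctgf, a matricellular protein and a classic TGF-beta target, was named after its values were seen. It was at 18.9 CPM in vehicle, 55.4 in panobinostat, 78.4 in givinostat and 66.3 in ruxolitinib, above vehicle in all 3 drug libraries. Its ratios were 2.93 (2.03 to 4.26), 4.14 (3.04 to 5.73) and 3.51 (2.57 to 4.85), all against the same low vehicle value. Id1, another listed target, went the other way in loop of Henle-like cells. It was at 22.6 CPM in vehicle, 8.24 in panobinostat, 19.2 in givinostat and 5.33 in ruxolitinib, so the targets did not move together. In endothelial-like cells vehicle was instead the highest library for Ctgf, at 179, 61.7, 67.1 and 114 CPM. Tubular injury genes also stood lowest in vehicle in loop of Henle-like cells, at a summed 20791, 26859, 27148 and 33074 CPM, and their part in the Ctgf level was not tested.

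In macrophage-like cells 1 listed gene was higher and 5 lower of 23 under panobinostat, 1 and 3 of 22 under givinostat, and 3 and 2 of 23 under ruxolitinib. Of all genes tested there, 9.75%, 10.3% and 10.3% were higher and 9.59%, 8.03% and 6.16% lower. Pmepa1 was at 129 CPM in vehicle, 54.3 in panobinostat, 72.2 in givinostat and 61.7 in ruxolitinib, with ratios of 0.421, 0.560 and 0.479. Id1 was at 52.8, 21.7, 20.3 and 27.4 CPM, with ratios of 0.411, 0.384 and 0.519, so both genes stood highest in vehicle. Skil, a SMAD corepressor that is itself a target, did not follow, at 260, 247, 366 and 372 CPM. In monocyte-like cells 2 of 24 were higher and 2 lower under panobinostat, 2 of 23 and 1 under givinostat, and 2 of 23 and 0 under ruxolitinib, beside 4.47%, 6.54% and 5.38% of all genes higher and 5.57%, 4.23% and 6.56% lower. In T-like cells the counts were 0 and 5 of 15, 1 and 0 of 16, and 1 and 0 of 15, beside 3.63%, 3.87% and 3.19% of all genes higher and 4.07%, 0.853% and 1.40% lower. Among the 5 in panobinostat was Furin, the protease that cuts the TGF-beta precursor, at 195 CPM in vehicle, 96.2 in panobinostat, 205 in givinostat and 163 in ruxolitinib. By cluster, in vehicle and panobinostat, Furin was at 28.7 and 16.6 CPM (cluster 4), 328 and 227 (cluster 7) and 324 and 364 (cluster 15). Clusters 7 and 15 made up 265 and 117 of 656 vehicle T-like cells, and 102 and 28 of 357 panobinostat ones. The part of this mix in the Furin level was not tested.

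**Figure D5:**
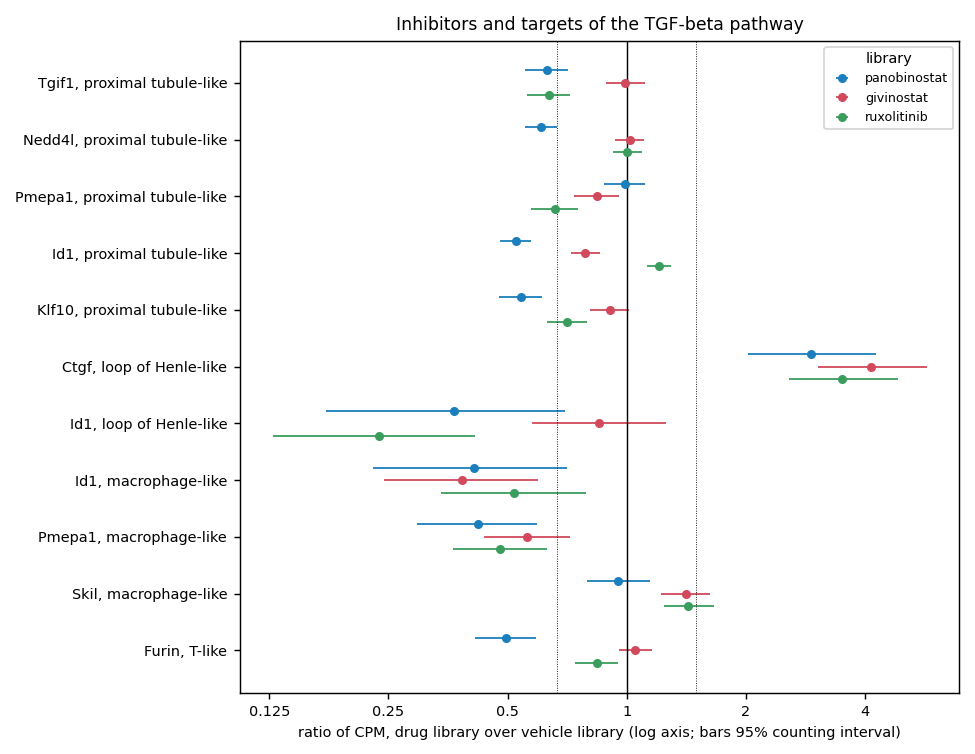
Ratio of CPM in each drug library to the vehicle library (log axis) for 11 pairs of a listed pathway gene and a class, with exact 95% counting intervals and dotted lines at 1.5-fold. In loop of Henle-like cells Ctgf lies above 1 and Id1 below 1 in all 3 drug libraries. Id1 and Pmepa1 in macrophage-like cells lie below 1 in all 3.

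The listed genes with the highest CPM in each role are given by the class where their RNA stood highest. Pooled over libraries, Nrros, which tethers latent TGF-beta on myeloid cells, stood at 212 CPM in monocyte-like cells, Ltbp4, a latent TGF-beta binding protein of matrix, at 206 in endothelial-like cells, and Furin at 181 in T-like cells. Of the activation genes, the integrin chain Itgb1 (748 CPM) and the protease Plat (316 CPM) were highest in stromal-like cells and the gelatinase Mmp9 (400 CPM) in neutrophil-like cells. The endothelial co-receptors Eng (577 CPM) and Acvrl1 (108 CPM) were highest in endothelial-like cells and the co-receptor Tgfbr3 (101 CPM) in stromal-like cells. Zfyve9, which brings SMADs to the receptor, stood at 138 CPM in monocyte-like cells, Smad4 at 108 CPM in the unnamed cluster led by Lef1 and Ccr7, and Smad3 at 57.1 CPM in NK-like cells. Pmepa1 stood at 551 CPM in stromal-like, Skil at 325 in macrophage-like and Tgif1 at 242 in NK-like cells. The collagen targets Col1a1, Col3a1 and Col1a2 were at 2091, 1954 and 1700 CPM in the 75 stromal-like cells, which their markers include.

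Across 46 units of 1 class in 1 library, the genes whose log2(CPM + 5) ran most like a member are given as a description, since units share libraries and clusters. Itgb6 was followed most closely by Tacc2 (Pearson r 0.95), Pkd2 (0.94), the polycystic kidney disease gene, and Phldb2 (0.93). Itgb8 was followed by proximal tubule genes, Slc16a12 (0.94), Tinag (0.92) and Ggt1 (0.90), and Tgfb1 by Apbb1ip (0.97), H2-D1 (0.97) and Grk2 (0.96). For Itgav the 3 were Fyco1 (0.90), Atp6v1f (0.89) and Snx14 (0.89), and for Thbs1 they were Pygl (0.89), Megf9 (0.88) and Cdc42ep2 (0.87). For Tgfbr1 they were Cyfip1 (0.90), Mfap3 (0.89) and Adam17 (0.88), for Tgfbr2 Parp14 (0.92), Parp9 (0.90) and Rnf213 (0.88), and for Smad7 Birc2 (0.89), Tecpr1 (0.89) and Zdhhc18 (0.89). Between members, Tgfb1 and Itgb6 ran opposite to each other (r -0.72) and Tgfb1 and Tgfbr2 ran together (0.78). Itgb6 ran with Itgav (0.58) and with Itgb8 (0.57).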

How the data were processed

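Per the labels, cells of whole mouse kidney were run on a 10x Chromium instrument with 3′ chemistry, so UMIs mark transcript ends. The authors deposited a matrix of whole-number counts (UMIs per gene and cell) for all 4 libraries in 1 table. Cell Ranger 3.0.1 and mm10 are named per the submitters' processing notes; the annotation is not given in the sources used here. Samples were taken from the library name in each cell's name; the name CTRL matches no label and was assigned to vehicle as the only group without a drug. There were 0 sample columns left unmapped.

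Cells were kept from 200 genes and 500 UMIs up, to a limit of 50% mitochondrial UMIs; all 226 left out had too few genes. Counts scaled to 10000 per cell, 2000 variable genes, 30 components and 15 neighbours gave Leiden clusters at resolution 1.0 (Python 3.11.15 with scanpy 1.11.5 and leidenalg 0.10.2; intervals by scipy 1.17.1), with no integration of libraries. A cluster was named "-like" for the marker list with the highest mean excess of log2(CPM + 5) over the median cluster. Left unnamed were clusters in which under 3 markers exceeded 1 log2 unit, or with a median doublet score above 0.2, Mki67 among the top 10 genes, a lead under 0.5 without own markers leading, or more markers of another class in the top 10. These naming thresholds were set after seeing the clusters, and names may differ from the authors'. Scrublet's own threshold called 0.0254% to 2.30% of cells doublets, so doublets were kept, and leaving out about 5% of the highest scores in 3 libraries and 2.30% in givinostat was an alternative.

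UMIs were summed per library and class. Intervals are exact 95% Poisson (levels), Clopper-Pearson (shares) and conditional binomial (ratios), for counting error only. On simulated counts, 94.6% of ratio intervals held the true value for givinostat against vehicle in proximal tubule-like cells, over 1200 genes. Those counts were drawn with Poisson error only, as the intervals assume, and without variation between animals or libraries. The simulation therefore checks the calculation and not the coverage in these data. No replicate exists, so no test was run. Genes with 20 CPM in either library were tested against 1.5-fold, and shares were also computed on cells thinned to 2500 UMIs. The 8 members were all named, and of the wider list the 3 genes per role with the highest CPM in any class plus those past 1.5-fold in proximal tubule-like cells; others are said to be named after their values were seen. For each member the 3 most correlated genes were named. Members and lists were chosen with earlier results of these data known. Alternatives were scalings by TMM (edgeR 4.0.16) and DESeq2 1.42.0 size factors in R 4.3.3, cell filters, cluster resolutions, doublets and depth. The following 3 were added after seeing the data: totals without mitochondrial UMIs, the vehicle cluster mix, and 40 in place of 50 cells for levels. RefSeq held promoter windows for 6 of the 8 members.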

Additional observations from a re-analysis of the deposited data

Results flagged for a closer look

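Some members stood past 1.5-fold of vehicle in opposite directions in different cell classes under the same drug, with each counting interval away from 1. None of these differences was tested, since each group has 1 library. Under givinostat, Thbs1 was at 1.54 times vehicle in monocyte-like, 1.68 in loop of Henle-like and 1.94 in distal convoluted tubule-like cells, and at 0.348 in macrophage-like cells, on 23 vehicle and 12 givinostat UMIs. Also under givinostat, Itgb8 was at 1.67 times vehicle in macrophage-like cells, 4.21 in dendritic-like cells and 0.397 in distal convoluted tubule-like cells. Pooled over the libraries, these classes held 152, 57 and 84 Itgb8 UMIs. In dendritic-like cluster 25, with 25 givinostat cells, Itgb8 ran from 4.81 to 61.8 CPM over the libraries. In dendritic-like cluster 24 it ran from 3.34 to 14.0 CPM. Proximal tubule markers summed to 3875 CPM in vehicle and 5066 CPM in givinostat in the dendritic-like cells, and to 5783 and 6395 CPM in the macrophage-like cells. Their part in these Itgb8 levels was not tested. Under ruxolitinib, Itgav was at 2.00 times vehicle in dendritic-like cells and at 0.390 in NK-like cells.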

How the results depend on the processing

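No paired analysis was possible because each group has 1 library and the labels give no replicate numbers. Of 320 alternative values for 27 ratios, 281 stayed within the 95% counting interval, 36 moved past it and 3 changed direction. Loop of Henle-like and macrophage-like cells each formed a single cluster at resolution 1.0, so the vehicle cluster mix could not change their ratios. Those unchanged values are counted among the 281. At resolution 1.5 the loop of Henle-like cells did split. The part led by Slc12a1 had 176, 105, 108 and 164 cells in vehicle, panobinostat, givinostat and ruxolitinib. The part led by Igfbp2 and Lcn2 had 66, 51, 76 and 116. The part of this mix in the loop of Henle-like ratios was not tested. Thinning cells to 2500 UMIs turned Itgav under givinostat in loop of Henle-like cells to 0.953 and Itgb6 under panobinostat there to 0.993, and the vehicle cluster mix turned Itgb8 under panobinostat in proximal tubule-like cells to 1.03; fewer UMIs enter the first 2. Thinning also moved Tgfb1 under panobinostat in monocyte-like cells to 1.04, Itgb6 in loop of Henle-like cells to 1.25 (givinostat) and 0.873 (ruxolitinib), Itgav there to 0.815 (ruxolitinib) and Itgb8 under ruxolitinib in proximal tubule-like cells to 1.19.

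TMM shifted all ruxolitinib log2 ratios by -0.13 in proximal tubule-like and -0.10 in T-like cells, and DESeq2 factors shifted the first by -0.12; other shifts were under 0.1. Under TMM and DESeq2 factors Itgb8 in proximal tubule-like cells was at 1.38 and 1.38 (givinostat) and 1.03 and 1.04 (ruxolitinib), Itgb6 under ruxolitinib at 0.975 and 0.982, and Smad7 under givinostat in T-like cells at 0.692 and 0.694; TMM put Smad7 under ruxolitinib at 0.700. The stricter cell filter put Itgb8 at 1.07 and Itgb6 at 0.961 under ruxolitinib in proximal tubule-like cells. Resolution 0.5 put Smad7 under givinostat at 0.782. With the same UMI floor in every library, Tgfbr1 under givinostat in macrophage-like cells was at 2.16, Tgfbr2 at 1.63 (givinostat) and 1.44 (ruxolitinib), and Smad7 in T-like cells at 0.734 (panobinostat) and 0.820 (givinostat). Itgb6 in proximal tubule-like cells was at 1.54 under panobinostat with the vehicle cluster mix. Within clusters 3, 5, 10 and 12 it was at 1.53, 1.09, 1.81 and 2.39 under panobinostat, within clusters 2, 3, 5, 10 and 12 at 1.64, 2.53, 1.69, 1.98 and 2.60 under givinostat, and within clusters 0, 5, 12 and 20 at 0.936, 0.808, 1.85 and 0.947 under ruxolitinib. The cause of these moves was not tested.

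The share of all genes past the fold depends on its definition. In the order panobinostat, givinostat and ruxolitinib, with no filter on low levels it was 16.2%, 18.6% and 18.4% in proximal tubule-like, 24.7%, 26.4% and 25.3% in loop of Henle-like, 24.6%, 29.4% and 29.9% in monocyte-like, 31.2%, 30.1% and 32.5% in macrophage-like and 26.8%, 25.0% and 23.8% in T-like cells. Past 2-fold it was 0.307%, 0.316% and 0.430%, then 1.55%, 2.33% and 2.08%, then 1.56%, 2.36% and 2.80%, then 6.03%, 4.71% and 4.09%, and 1.70%, 0.801% and 0.410% in those classes. With at least 50 CPM it was 2.25%, 1.92% and 2.44% in proximal tubule-like and 4.01%, 5.87% and 6.04% in loop of Henle-like cells. It was then 4.23%, 6.80% and 6.62% in monocyte-like, 12.4%, 14.5% and 10.7% in macrophage-like and 5.39%, 2.95% and 2.31% in T-like cells. Of the 24 genes most like a member, 17 were shared with a pseudocount of 1 and 18 with 20.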
